A study of Homo sapiens with 6 samples.

Results

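The PTP4A phosphatases and the CNNM magnesium transporters were examined in CHL-1 cells, an established human melanoma line that carries the EWSR1::CREM fusion gene. The members were named by gene symbol as PTP4A1, PTP4A2, PTP4A3, CNNM1, CNNM2, CNNM3 and CNNM4, and 6 of these 7 genes had a row among the 21625 genes of the deposited tables. Cells received 50 nM CREM siRNA, a pool directed against the part of CREM that the fusion also contains, or 50 nM Control siRNA, a mix of non-targeting siRNAs. RNA was collected after 48 h and sequenced as polyadenylated mRNA in 3 CREM siRNA and 3 Control siRNA libraries. Both groups are the same single line in culture, and the siRNA cannot separate the fusion transcript from wild-type CREM. The set was chosen on the difference between these same groups, so the levels of the members below are a description and carry no test.

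PTP4A proteins, also called phosphatases of regenerating liver or PRL, are small cysteine phosphatases that are anchored to membranes by a prenyl group at their C terminus. They bind the CBS domains of the CNNM proteins, membrane proteins of the basolateral surface of epithelia that take part in magnesium efflux and reabsorption, and this binding alters cellular magnesium. PTP4A protein is known to rise when magnesium is depleted, and raised PTP4A3 has been linked to metastasis in colorectal cancer and melanoma.

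The bases before the RefSeq start sites were read because CREM binds the cAMP response element (CRE), written TGACGTCA, and its shorter core TGACG. Both motifs were searched on both strands in windows of 300 bases, from 250 bases before to 50 bases after each start, and every CRE contains the core on each strand. The 250 bases before the start are shown for PTP4A1, which had the largest difference among the members, and for its paralogue PTP4A2. The same bases are shown for CNNM4, which had a difference near 0 on the deposited scale. They are given 5′ to 3′ on the coding strand of GRCh38.p14 from the RefSeq promoter table, with CRE and core matches in capitals. The PTP4A1 bases lie at chr6:63572230-63572479 on the plus strand, the PTP4A2 bases at chr1:31938369-31938618 on the minus strand and the CNNM4 bases at chr2:96760652-96760901 on the plus strand.
PTP4A1: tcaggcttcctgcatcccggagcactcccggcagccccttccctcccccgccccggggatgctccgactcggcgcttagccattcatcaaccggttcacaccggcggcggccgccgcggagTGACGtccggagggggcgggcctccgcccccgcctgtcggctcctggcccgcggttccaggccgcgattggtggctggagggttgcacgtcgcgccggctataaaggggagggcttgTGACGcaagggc
PTP4A2: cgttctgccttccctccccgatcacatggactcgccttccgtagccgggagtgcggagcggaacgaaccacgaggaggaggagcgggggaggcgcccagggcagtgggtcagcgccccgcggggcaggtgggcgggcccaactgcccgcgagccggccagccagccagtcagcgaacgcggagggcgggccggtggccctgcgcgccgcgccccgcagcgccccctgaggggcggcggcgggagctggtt
CNNM4: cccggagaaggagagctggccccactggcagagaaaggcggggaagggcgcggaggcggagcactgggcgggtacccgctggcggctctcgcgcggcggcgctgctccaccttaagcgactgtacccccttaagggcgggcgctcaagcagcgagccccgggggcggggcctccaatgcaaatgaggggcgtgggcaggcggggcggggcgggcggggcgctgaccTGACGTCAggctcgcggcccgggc
The PTP4A1 window held no full CRE and 2 cores, whose first bases stood at -129 and -12 from the start. CNNM4 was the one gene among PTP4A1, PTP4A2, CNNM1, CNNM2, CNNM3 and CNNM4 with a full CRE, beginning at -24. Neither window of PTP4A2 and none of the single windows of CNNM1, CNNM2 and CNNM3 held a core, and of the other 3 start windows of PTP4A1 1 held a core at -240. Of all 35116 windows in the table, 1.85% held a CRE and 24.6% a core, and of the 14168 windows of genes tested below, 2.98% held a CRE and 32.5% a core. Whether these matches relate to the differences in RNA was not tested. A match of letters is a description of these windows and not a site of binding.

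The 2 expressed phosphatases are close in protein and differ at the level of bases. Proteins translated from GENCODE 29 coding sequences had 173 residues for PTP4A1 and PTP4A3 and 167 for PTP4A2, and PTP4A1 and PTP4A2 were identical at 149 of 167 aligned residues (89.2%). PTP4A1 and PTP4A3 shared 78.6% of 173 aligned residues, and PTP4A2 and PTP4A3 78.4% of 167. The codons around the catalytic cysteine and the last 4 codons, which begin with the prenylated cysteine, are shown because they serve the enzymatic activity and the membrane anchor of both proteins. The cysteine codon is in capitals, at residue 104 of PTP4A1 and residue 101 of PTP4A2 in the active site, and at residues 170 and 164 in the tail.
PTP4A1 active site: catTGCgttgcaggccttgggaga
PTP4A2 active site: catTGTgttgcaggattgggaagg
PTP4A1 tail: TGTtgcattcaa
PTP4A2 tail: TGCtgtgttcag
Between the paralogues 6 of 24 bases differed in the active-site stretch and 4 of 12 in the tail. No run of 50 bases of a PTP4A transcript occurred in another PTP4A member, so reads of this length with no mismatch could be told apart between them. RefSeq lists 7 pseudogenes of PTP4A1 and 2 of PTP4A2, and 0 of these had a row. Of the 50-base runs of PTP4A1, 76.7% also occurred in AL135905.2, a GENCODE 29 gene drawn over the same exons, which had no row either. How reads shared with AL135905.2 were counted was not tested, and it bears on the PTP4A1 level and on its ratio to PTP4A2. The CNNM proteins had 951 residues for CNNM1, 875 for CNNM2, 707 for CNNM3 and 775 for CNNM4, and the closest pair, CNNM2 and CNNM4, shared 65.1% of aligned residues.

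The libraries held 23793186 to 29793837 reads with CREM siRNA and 17221794 to 24341121 with Control siRNA. CPM here are reads scaled by a factor per library. CREM, the targeted transcription factor gene, had 14.8, 16.9 and 15.5 CPM in CREM siRNA cells, against 268, 286 and 287 CPM in Control siRNA cells. Its CREM siRNA mean was 5.62% of the Control mean. A minimum mean level of 1 RPKM (CPM per kilobase of gene length) was met by 12407 genes, of which 4544 were higher and 4558 lower with CREM siRNA at an adjusted p under 0.05 (limma on log2 of RPKM plus 1). The median log2 fold change moved by 0.18 when libraries were scaled by GAPDH, with 5788 higher and 2976 lower, and by 0.25 when they were scaled by other reference genes, with 6971 higher and 2863 lower. Melanocyte markers summed to 922 to 950 RPKM with CREM siRNA and 393 to 430 RPKM with Control siRNA, mainly from SOX10, DCT and S100B, while MLANA had 0, 0 and 0.817 RPKM with CREM siRNA and 0, 0 and 0.386 RPKM with Control siRNA, and TYR 0, 0 and 0.314 RPKM with CREM siRNA and 0, 0 and 0.0387 RPKM with Control siRNA. Replicate 3 of both groups thus stood apart in MLANA, TYR and PMEL. PMEL had 0.372, 0.814 and 8.35 RPKM with CREM siRNA, against 0.636, 0.61 and 1.94 RPKM with Control siRNA. The pigment genes DCT and TYRP1 did not share this. DCT had 244, 251 and 220 RPKM with CREM siRNA, against 25.4, 23.4 and 23.1 RPKM with Control siRNA. Member values without replicate 3 are given below. Leukocyte, epithelial and endothelial markers had no gene at a mean of 1 RPKM over all 6 libraries, and CD3E, KRT5 and PECAM1 were at 0 in all 6. The leukocyte sum was 0.12 to 0.258 RPKM with CREM siRNA and 1.25 to 1.52 RPKM with Control siRNA. Its Control level was mainly PTPRC, at 0.146, 0.0993 and 0.0975 RPKM with CREM siRNA, against 1.23, 1.22 and 1.38 RPKM with Control siRNA. The part of these markers in the results was not tested, and in bulk RNA fewer cells of a type and less RNA per cell cannot be told apart.

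PTP4A1, the phosphatase with the highest level in Control siRNA cells, was the member that differed most. It had 74.9, 78.6 and 69.7 CPM in CREM siRNA libraries, against 369, 392 and 360 CPM in Control siRNA libraries. Its mean was 74.4 ± 4.47 CPM with CREM siRNA and 374 ± 16.5 CPM with Control siRNA (SD, n = 3 each), so that 19.9% of the Control level remained. The groups were far apart relative to their spread, and the 3 CREM siRNA libraries all lay below the lowest Control siRNA library. These values rested on 1736 to 2217 reads per library with CREM siRNA and 6392 to 9599 with Control siRNA. The log2 fold change was -2.25 with a standard error of 0.0557, and 234 of the 12407 genes (1.89%) had a lower one. It was -2.23 without replicate 3 of both groups, -2.06 with GAPDH scaling and -1.98 with reference gene scaling.

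Per length, PTP4A1 was at 14.3, 15.0 and 13.3 RPKM with CREM siRNA, against 70.5, 74.9 and 68.9 RPKM with Control siRNA. Among all 21625 genes ranked by mean RPKM it stood at place 4494 with CREM siRNA and at place 842 with Control siRNA. PTP4A1 (Entrez 7803) spans bases 63516440 to 63583588 on the plus strand of chromosome 6 in GRCh38. The nearest gene after it, PHF3, which encodes a PHD finger protein of RNA polymerase II transcription, had a log2 fold change of 0.09 (adjusted p = 0.156, limma) and did not pass the test. KHDRBS2, the nearest row before it, averaged 0.347 RPKM with CREM siRNA and 0.479 RPKM with Control siRNA, and LGSN, which overlaps PTP4A1 on the other strand in RefSeq, averaged 0.0912 RPKM with CREM siRNA and 0.0509 RPKM with Control siRNA.

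PTP4A2, the paralogue expressed in most tissues, was close between the groups. It had 174, 168 and 174 CPM in CREM siRNA libraries, against 193, 192 and 200 CPM in Control siRNA libraries, or 172 ± 3.61 CPM and 195 ± 4.2 CPM (SD, n = 3 each). CREM siRNA cells kept 88.3% of the Control level, and the groups did not overlap. The log2 fold change was -0.17 with a standard error of 0.0441, and -0.17 without replicate 3 of both groups. It changed sign with the scaling, to 0.02 when libraries were scaled by GAPDH and 0.10 when they were scaled by reference genes, so its direction cannot be given. PTP4A2 (Entrez 8073) lies on the minus strand of chromosome 1 between bases 31906421 and 31938368. KHDRBS1, the RNA-binding protein gene at 75500 bases from it, fell by 0.53 on the log2 scale (adjusted p = 1.47e-06, limma), and SPOCD1 on the other side averaged 0.461 RPKM with CREM siRNA and 0.0114 RPKM with Control siRNA, both under the filter.

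PTP4A3, the family member linked to metastasis, was scarcely detected. It had 7, 7 and 7 reads in CREM siRNA libraries and 2, 1 and 5 reads in Control siRNA libraries, or 0.0635, 0.0769 and 0.0755 RPKM with CREM siRNA and 0.031, 0.011 and 0.0565 RPKM with Control siRNA. The counts of both groups were so low that no fold change is given, and the gene was left out of the fit by the filter of 1 RPKM. PTP4A3 made up 0.115% to 0.141% of the summed PTP4A RPKM with CREM siRNA and 0.00914% to 0.0488% with Control siRNA. It spans bases 141392021 to 141432454 of chromosome 8. Of its neighbours, TSNARE1 rose by 0.33 on the log2 scale (adjusted p = 0.00162, limma), at 2.00 RPKM with CREM siRNA and 1.39 RPKM with Control siRNA, and SLC45A4 averaged 0.674 RPKM with CREM siRNA and 1.14 RPKM with Control siRNA.

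**Figure D1:**
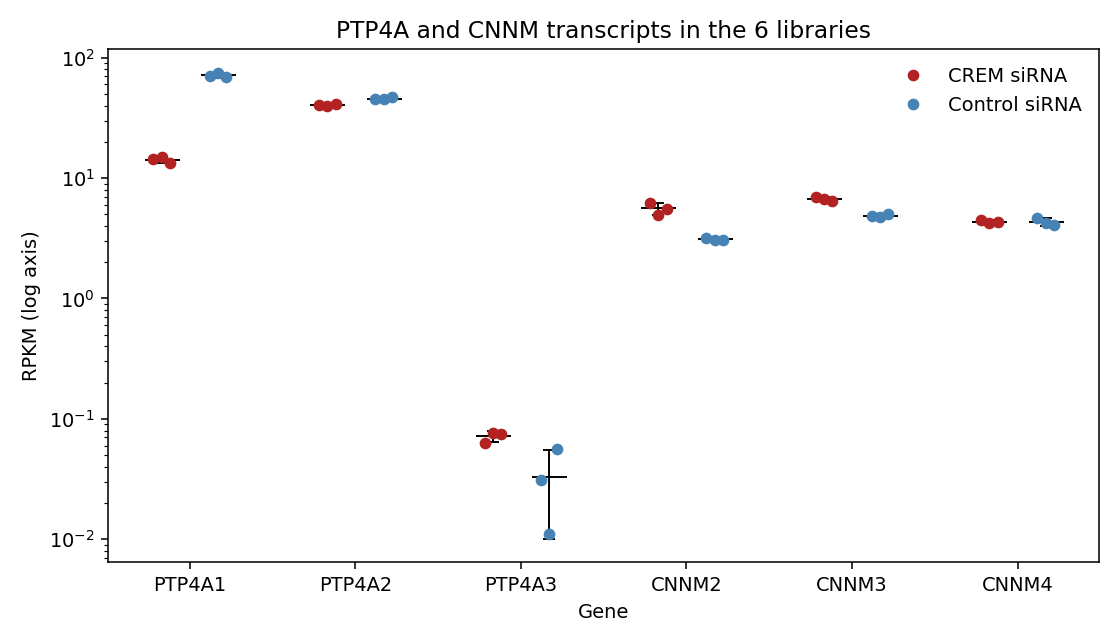
RPKM on a log axis of the 6 members with a row, as points for each of 3 CREM siRNA (left) and 3 Control siRNA (right) libraries per gene, with lines at the mean and bars of 1 SD. PTP4A1 stands at 13.3 to 15.0 RPKM with CREM siRNA and 68.9 to 74.9 RPKM with Control siRNA, and CNNM4 is the one gene above 1 RPKM whose groups overlap.

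The CNNM transporters did not share the difference of PTP4A1, as the plot of RPKM by gene and library shows. CNNM2, which is known for magnesium reabsorption in the kidney and for inherited low magnesium when mutated, was the CNNM gene with the largest difference. It had 29.1, 23.2 and 26.1 CPM in CREM siRNA libraries, against 14.7, 14.4 and 14.3 CPM in Control siRNA libraries. The mean was 26.1 ± 2.93 CPM with CREM siRNA and 14.5 ± 0.219 CPM with Control siRNA (SD, n = 3 each), a ratio of 1.81. All CREM siRNA libraries lay above all Control siRNA libraries, with a wider spread among the CREM siRNA libraries. The log2 fold change was 0.68 with a standard error of 0.0747 on log2 of RPKM plus 1, and 0.86 in edgeR on the recovered reads, since the added 1 shrinks the change of a gene at 3 to 6 RPKM. It was 0.68 without replicate 3 of both groups, 0.84 with GAPDH scaling and 0.90 with reference gene scaling.

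CNNM2 (Entrez 54805) spans bases 102918294 to 103090222 on the plus strand of chromosome 10. NT5C2, a cytosolic nucleotidase gene on the minus strand, overlaps it and rose by 0.33 (adjusted p = 0.000362, limma), at 9.06 ± 0.24 RPKM with CREM siRNA and 7.02 ± 0.369 RPKM with Control siRNA. The sources used here do not say whether counting used strand, so reads in the overlap cannot be assigned to one of them with certainty. AS3MT before it averaged 0.0495 RPKM with CREM siRNA and 0.0627 RPKM with Control siRNA, and RPEL1 after it fell by 0.34 (adjusted p = 0.000719, limma). The length behind the RPKM of CNNM2 was 4674 bases, while its longest GENCODE 29 coding transcript has 15857, so its level per length depends on which transcript is used.

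CNNM3, a widely expressed family member, had 47.1, 44.8 and 43.8 CPM in CREM siRNA libraries, against 32.8, 31.8 and 34.1 CPM in Control siRNA libraries. The mean was 45.3 ± 1.66 CPM with CREM siRNA and 32.9 ± 1.15 CPM with Control siRNA (SD, n = 3 each), a ratio of 1.38 with no overlap between groups. The log2 fold change was 0.39 with a standard error of 0.0576, and 0.43 without replicate 3 of both groups. It was 0.56 with GAPDH scaling and 0.63 with reference gene scaling. CNNM4, which is known for magnesium transport in intestine and tooth enamel, had 23.9, 22.7 and 23.1 CPM in CREM siRNA libraries, against 24.9, 22.7 and 21.8 CPM in Control siRNA libraries. Its mean was 23.2 ± 0.62 CPM with CREM siRNA and 23.1 ± 1.6 CPM with Control siRNA (SD, n = 3 each). The groups overlapped, and the log2 fold change of 0.01 was smaller than its standard error of 0.0636. Without replicate 3 of both groups it was -0.03. With GAPDH scaling it was 0.17 and with reference gene scaling 0.23, so its nearness to 0 depends on the scaling.

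CNNM4 and CNNM3 lie one after the other on the plus strand of chromosome 2, at bases 96760902 to 96811874 and 96816268 to 96837466, with 4394 bases between them. The CNNM pair thus differed in its readout within a short stretch of chromosome. LMAN2L, the lectin gene before CNNM4, rose by 0.25 (adjusted p = 0.00112, limma), and ANKRD23, the ankyrin repeat gene after CNNM3, had -0.13 (adjusted p = 0.148, limma). CNNM1 (Entrez 26507), on chromosome 10 at bases 99329356 to 99394330, had no row in the tables and was not analysed here. Of the genes next to CNNM1, GOT1, an aspartate aminotransferase gene, fell by 0.33 (adjusted p = 0.000421, limma) and HPSE2 was at 0 RPKM in both groups.

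Of the 5 members above the filter, 4 had groups that did not overlap, where 76.2% of all 12407 genes did so. Most of the expressed genes differed between the groups in this sense on the deposited scale, and since the set was chosen on this contrast nothing is read from the 4 of 5.

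**Figure D2:**
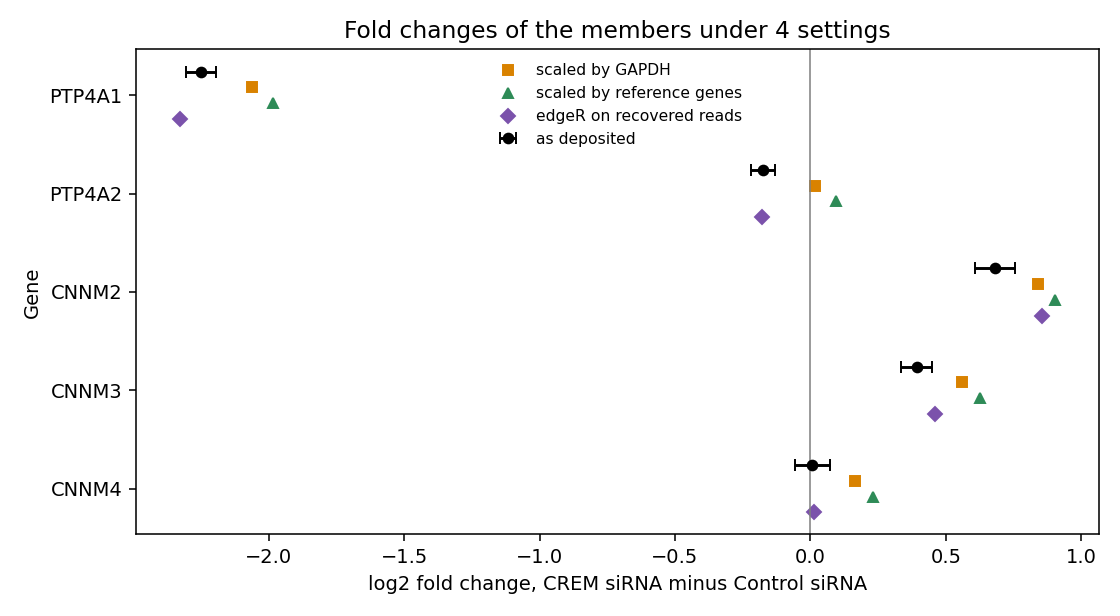
log2 fold changes of the 5 members above the filter, CREM siRNA minus Control siRNA, on the deposited scale with bars of 1 standard error and under GAPDH scaling, reference gene scaling and edgeR on recovered reads. PTP4A1 stays between -2.33 and -1.98 and CNNM2 and CNNM3 stay above 0, while PTP4A2 lies at -0.17 as deposited and at 0.02 and 0.10 under the GAPDH and reference gene scalings.

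Ratios of members within a library do not depend on how libraries are scaled. The RPKM ratio of PTP4A1 to PTP4A2 was 0.351, 0.382 and 0.326 in CREM siRNA libraries, against 1.56, 1.66 and 1.47 in Control siRNA libraries. As counted, PTP4A1 was thus the more abundant phosphatase transcript in every Control siRNA library and PTP4A2 in every CREM siRNA library. The share of PTP4A1 in the summed RPKM of the PTP4A genes was 25.9%, 27.6% and 24.6% with CREM siRNA, against 60.9%, 62.5% and 59.5% with Control siRNA. With PTP4A2 close to level, the summed PTP4A RPKM was 55.2, 54.5 and 54.3 in CREM siRNA libraries, against 116, 120 and 116 in Control siRNA libraries, and 46.7% of the Control mean remained. Unlike the ratios, this sum and the CNNM sum below are on the deposited scale and depend on how libraries are scaled.

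The CNNM side shifted less and the other way. The summed RPKM of CNNM2, CNNM3 and CNNM4 was 17.7, 15.9 and 16.4 in CREM siRNA libraries, against 12.7, 12.0 and 12.2 in Control siRNA libraries. Summed PTP4A over summed CNNM transcript was 3.12, 3.43 and 3.31 with CREM siRNA, against 9.14, 9.96 and 9.50 with Control siRNA, so phosphatase transcripts exceeded transporter transcripts in all 6 libraries and by less after CREM siRNA. Within the CNNM genes the RPKM ratio of CNNM2 to CNNM4 was 1.39, 1.17 and 1.29 with CREM siRNA, against 0.676, 0.724 and 0.752 with Control siRNA. CNNM2 held 33.5 ± 1.98% of the CNNM sum with CREM siRNA and 25.2 ± 0.349% with Control siRNA, CNNM4 26.1% with CREM siRNA and 35.2% with Control siRNA, and CNNM3 40.3% with CREM siRNA and 39.7% with Control siRNA (n = 3 each). The order by mean RPKM was PTP4A2, PTP4A1, CNNM3, CNNM2, CNNM4 and PTP4A3 with CREM siRNA, and PTP4A1, PTP4A2, CNNM3, CNNM4, CNNM2 and PTP4A3 with Control siRNA. No neighbours in either order overlapped in their libraries. Levels compared between genes rest on the length used for each. That length was 4674 bases for CNNM2 and 6741 for CNNM3, while their longest coding transcripts have 15857 and 3447. The order, with its exchange of CNNM2 and CNNM4, the shares and the PTP4A to CNNM ratio depend on these lengths.

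**Figure D3:**
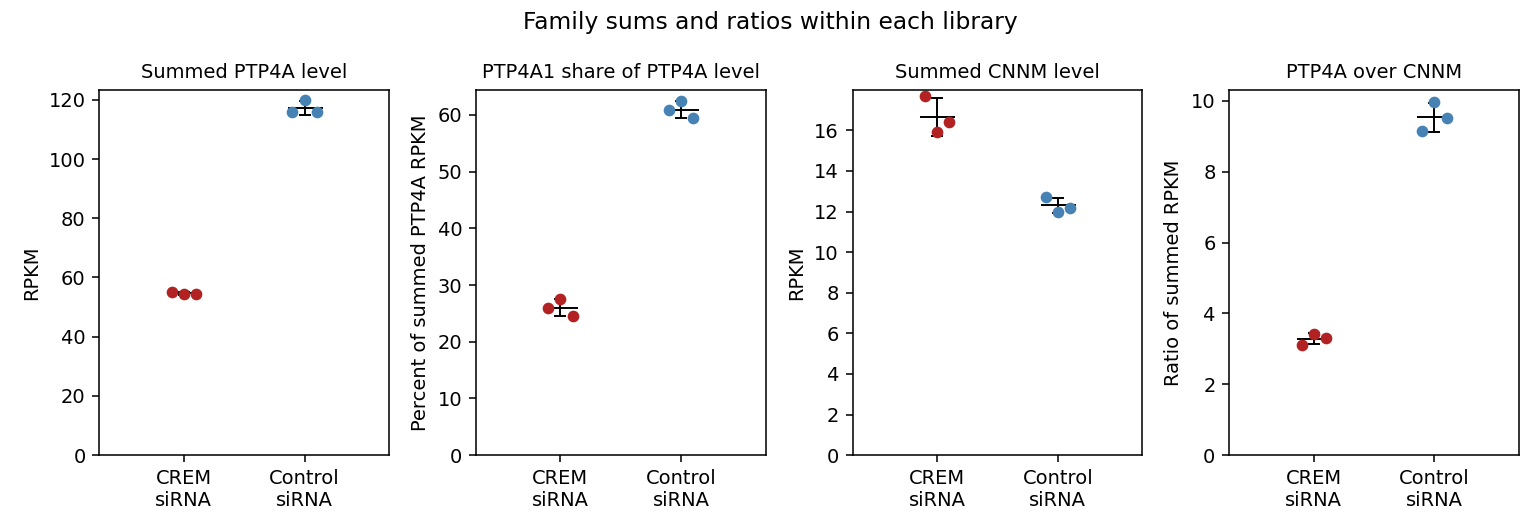
Family sums and ratios per library, with CREM siRNA left of Control siRNA in each panel, lines at the mean and bars of 1 SD. The PTP4A sum and the PTP4A1 share are lower with CREM siRNA, the CNNM sum is higher at 15.9 to 17.7 RPKM against 12.0 to 12.7 RPKM, and the PTP4A to CNNM ratio is 3.12 to 3.43 against 9.14 to 9.96. The sums are on the deposited scale.

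Over the 6 libraries the genes with the pattern most like PTP4A1, by Pearson r of log2 of RPKM plus 1, were GMPS, a guanine nucleotide synthesis enzyme (r = 0.9999), and EPHA2, a receptor tyrosine kinase, MCM10, a replication initiation factor, MLLT11 and the tropomyosin gene TPM3 (r = 0.9998 each). An r takes no account of the size of a difference. The log2 differences were -0.78 for GMPS, -1.93 for EPHA2, -2.28 for MCM10, -2.65 for MLLT11 and -1.11 for TPM3, against -2.25 for PTP4A1. EPHA2 had 5.25, 5.67 and 4.92 RPKM with CREM siRNA, against 23.1, 23.8 and 21.9 RPKM with Control siRNA. MLLT11 had 10.3, 11.5 and 9.63 RPKM with CREM siRNA, against 71.5, 74.7 and 67.8 RPKM with Control siRNA. The 6 points fall into the 2 groups, and 1430 of the 12407 genes (11.5%) had an r of at least 0.99, so likeness here mostly restates the difference between groups.

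Magnesium transport genes outside the family moved in both directions. Of 19 genes in the list 18 had a row and 13 passed the filter, and 6 of these 13 (46.2%) differed, where 73.4% of all genes tested did, 2 higher (36.6% of all genes were) and 4 lower (36.7% of all genes were). The median log2 fold change was -0.09 in the list and 0.00 over all genes. With GAPDH scaling 5 were higher and 2 lower, where 5788 of all 12407 genes were higher and 2976 lower. With reference gene scaling 6 were higher and 2 lower, where 6971 of all 12407 genes were higher and 2863 lower. TRPM7, a channel with a kinase domain that admits magnesium and calcium, had 19.5, 17.1 and 18.1 RPKM with CREM siRNA, against 9.37, 8.58 and 8.98 RPKM with Control siRNA, and rose by 0.95 on the log2 scale (standard error 0.0605, adjusted p = 1.11e-07, limma). Its groups were well apart. SLC41A3, a carrier of the SLC41 magnesium transporter family, rose by 0.25 (adjusted p = 0.0023, limma).

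NIPAL3, a relative of the NIPA magnesium transporters, had 14.3, 13.0 and 12.2 RPKM with CREM siRNA, against 21.8, 20.2 and 18.7 RPKM with Control siRNA, and fell by 0.58 (adjusted p = 2e-05, limma). NIPA2 fell by 0.40 (adjusted p = 2.77e-05, limma), TUSC3, an oligosaccharyltransferase subunit related to MAGT1, by 0.34 (adjusted p = 0.000949, limma) and SLC41A2 by 0.25 (adjusted p = 0.00733, limma). The falls of TUSC3 and SLC41A2 were no longer called after scaling by GAPDH, at -0.15 and -0.10, or by reference genes, at -0.07 and -0.04. The 7 genes that did not pass included the mitochondrial magnesium channel MRS2 at -0.01, MAGT1 at 0.03 and ARL15, a small GTPase that binds CNNM proteins, at -0.09. MAGT1 was called higher with GAPDH scaling, at 0.22, and with reference gene scaling, at 0.30. MRS2 was called higher with reference gene scaling, at 0.24, and ARL15 was called under neither. The kidney channel TRPM6 was at 0.00883 RPKM with CREM siRNA and 0.0142 RPKM with Control siRNA, and the tight junction gene CLDN16 was at 0 in both groups.

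Genes of protein prenylation, the modification that anchors PTP4A proteins, were also split. Of 12 genes 11 passed the filter, and 6 of these (54.5%) differed, where 73.4% of all genes tested did, 4 higher (36.6% of all genes were) and 2 lower (36.7% of all genes were), with a median log2 fold change of 0.01. With reference gene scaling 9 were higher and 2 lower, where 6971 of all 12407 genes were higher and 2863 lower. FNTA, the subunit shared by the farnesyl and the geranylgeranyl transferase, had 24.2, 24.8 and 24.5 RPKM with CREM siRNA, against 14.6, 12.4 and 14.8 RPKM with Control siRNA, and rose by 0.78 (adjusted p = 1.09e-06, limma). The prenyl-binding carriers RAP1GDS1 and PDE6D rose by 0.52 (adjusted p = 4.96e-06, limma) and 0.41 (adjusted p = 0.000679, limma), and GGPS1, which makes the geranylgeranyl donor, rose by 0.22 (adjusted p = 0.00232, limma). FDPS, which makes farnesyl diphosphate and also serves sterol synthesis, had 40.2, 40.5 and 39.4 RPKM with CREM siRNA, against 76.8, 79.6 and 87.5 RPKM with Control siRNA, and fell by 1.00 (adjusted p = 2.71e-08, limma). ICMT, which methylates the prenylated cysteine, fell by 0.57 (adjusted p = 9.88e-07, limma). RCE1, ZMPSTE24, PGGT1B, RABGGTA and RABGGTB lay between -0.06 and 0.13 and did not pass on the deposited scale. With reference gene scaling all of them were called higher, at 0.39, 0.20, 0.16, 0.26 and 0.25 in that order. With GAPDH scaling RCE1 was called higher, at 0.32, and the others of them were not called. FNTB was under the filter at 0.723 RPKM with CREM siRNA and 0.512 RPKM with Control siRNA.

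Other cysteine phosphatases, outside the PTP4A subfamily, held both the largest rise and the largest fall among the listed genes. Of 26 genes 25 passed the filter, and 20 of these (80%) differed, where 73.4% of all genes did. Of the 25, 15 were higher (36.6% of all genes were) and 5 lower (36.7% of all genes were). The median log2 fold change was 0.25. The split was 18 higher and 3 lower with GAPDH scaling, where 5788 of all 12407 genes were higher and 2976 lower. It was 20 higher and 3 lower with reference gene scaling, where 6971 of all 12407 genes were higher and 2863 lower. With a filter of 5 RPKM, 13 differed, 8 of them higher, where 6594 of all 8649 genes differed, 3254 of them higher. That filter left fewer genes of the list to test, so the 13 cannot be set against the 20 of 25. DUSP14, an atypical dual-specificity phosphatase, had 49.4, 46.6 and 52.4 RPKM with CREM siRNA, against 15.6, 16.2 and 18.8 RPKM with Control siRNA, and rose by 1.50 (adjusted p = 8.6e-09, limma). PTPN1, which acts on the insulin receptor, rose by 1.15 (adjusted p = 7.38e-08, limma) and CDC14B by 0.66 (adjusted p = 3.25e-06, limma).

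CDKN3, a phosphatase of cyclin-dependent kinases, had 3.99, 3.62 and 4.55 RPKM with CREM siRNA, against 31.7, 34.6 and 39.6 RPKM with Control siRNA, and fell by 2.84 (adjusted p = 6.37e-10, limma). It was the one phosphatase of the list with a fold change below that of PTP4A1. PTPDC1 fell by 0.97 (adjusted p = 3.02e-08, limma), RNGTT, the mRNA capping enzyme, by 0.69 (adjusted p = 3.08e-06, limma), SSH3 by 0.38 (adjusted p = 0.000101, limma) and PTPMT1 by 0.19 (adjusted p = 0.00448, limma). SSH3 and PTPMT1 were no longer called after scaling by GAPDH, SSH3 at -0.19 and PTPMT1 at -0.0044, or by reference genes, SSH3 at -0.11 and PTPMT1 at 0.07. DUSP3, PTPN11, ACP1, DUSP22 and DUSP12 lay between -0.03 and 0.10 and did not pass on the deposited scale. With reference gene scaling all of them were called higher, at 0.37, 0.37, 0.35, 0.23 and 0.23 in that order. With GAPDH scaling DUSP3, PTPN11 and ACP1 were called higher, at 0.29, 0.29 and 0.27, and DUSP22 and DUSP12 were not called. The plot of list fold changes shows CDKN3 well below every other gene of the 3 lists.

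**Figure D4:**
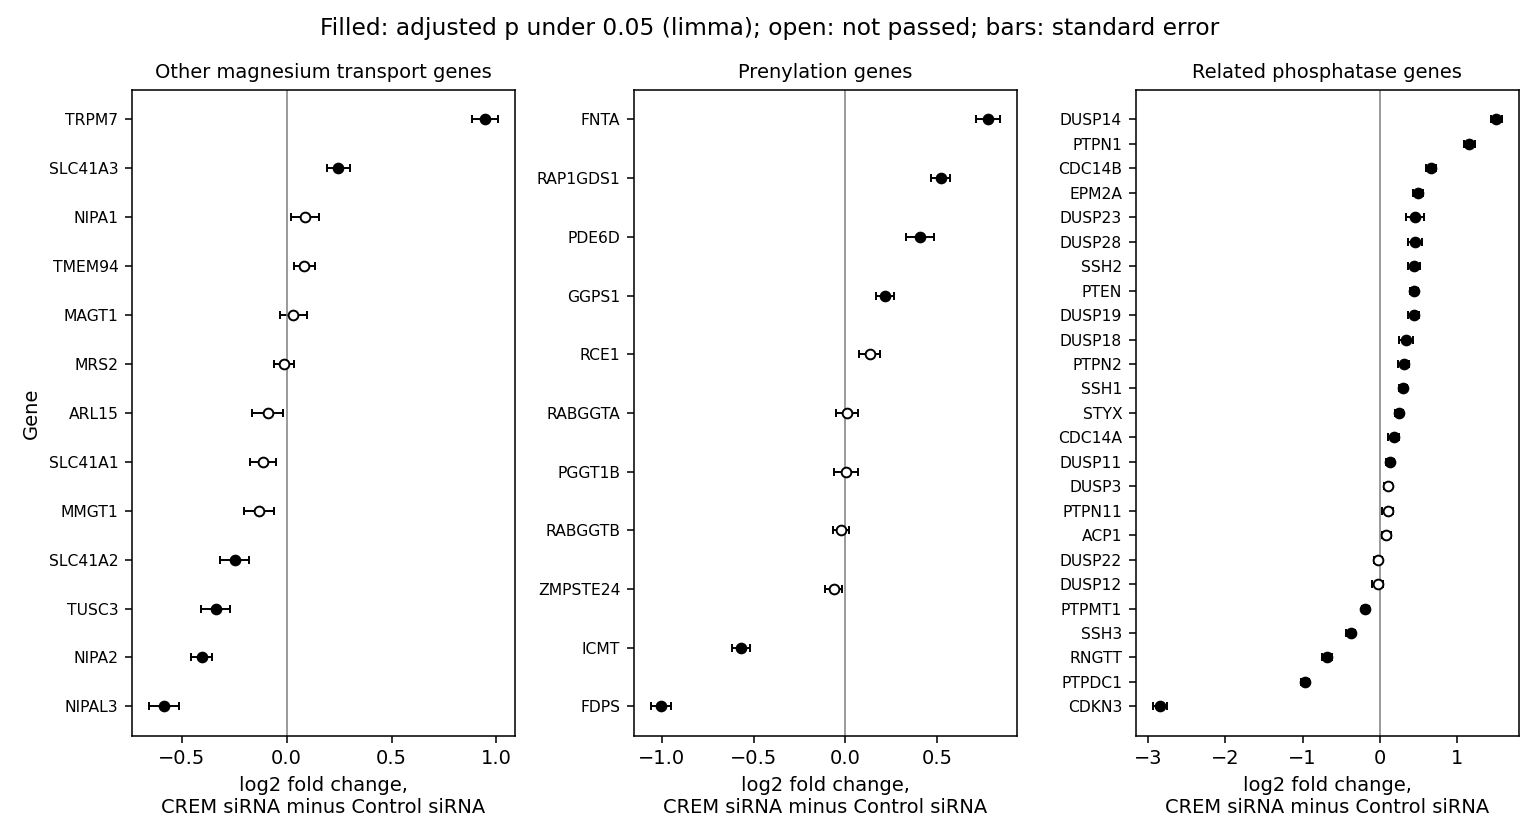
log2 fold changes, CREM siRNA minus Control siRNA, of the 13 magnesium transport, 11 prenylation and 25 related phosphatase genes tested, with bars of 1 standard error, filled where the adjusted p was under 0.05. The 3 panels have their own horizontal scales, and the extremes are CDKN3 at -2.84 and DUSP14 at 1.50, both phosphatases.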

How the data were processed

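RNA of CHL-1 cells was sequenced on HiSeq instruments from stranded mRNA libraries. The authors deposited CPM and RPKM tables of 21625 genes by Entrez ID, 313 without a symbol. Submitters' processing notes name R 3.6.1 and hg38. An aligner, counter, annotation and strand setting were not given in the sources used here. Of the deposited CPM, 100% were whole reads within 0.001 of a read, 1 read being worth 0.0338 to 0.0577 CPM, and the deposited RPKM divide the same values by 1 length per gene. The deposited CPM summed to 973557 in CREM siRNA replicate 2 and to 1007040 in CREM siRNA replicate 1. The scaling thus held a factor beyond the read total of each library. The study describes scaling to GAPDH, but GAPDH was not constant in these columns.

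The test was limma 3.58.1 (trend and robust) in R 4.3.3 on log2 of RPKM plus 1, over genes averaging 1 RPKM or more. Benjamini-Hochberg adjustment was used with a threshold of 0.05. The same fit was also run on simulated data in which far fewer genes changed than were called here. That run does not bear on how scaling affects the calls. The libraries came from triplicate experiments in CHL-1, so p-values measure the spread between repeats in a single line. The members and lists were chosen with earlier results of these data known. Genes were named by a rule: all members, 3 of lowest adjusted p per direction and list, the 5 most like PTP4A1, nearest neighbours, and any counted among 5 or fewer. MRS2, MAGT1, ARL15, TRPM6, CLDN16 and FNTB were named after their values were seen. Alternatives were a pseudocount of 0.1, a filter of 5 RPKM or none, GAPDH, reference gene and median ratio scaling, CPM, edgeR 4.0.16 and DESeq2 1.42.0 on recovered reads, a replicate block and leaving out libraries. Promoters and coordinates are from RefSeq tables of GRCh38.p14, and protein identities from translated GENCODE 29 coding sequences, in place of a RefSeq protein table.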

Additional observations from a re-analysis of the deposited data

How the results depend on the processing

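Scaling decided the split of calls. Over all genes, 6971 were higher and 2863 lower when libraries were scaled by reference genes, and 5788 were higher and 2976 lower when scaled by GAPDH. Magnesium transport genes went to 5 higher and 2 lower with GAPDH and 6 higher and 2 lower with reference genes. Prenylation calls went to 11, 9 of them higher, with reference genes. Related phosphatases had 3 lower under both scalings, and 13 called, 8 of them higher, with a filter of 5 RPKM, which tests fewer genes. Over all genes that filter gave 6594 calls, 3254 of them higher. PTP4A1 was at -2.06 and -1.98 under these scalings, -2.33 in edgeR and -2.34 in DESeq2. PTP4A2 changed sign, to 0.02 and 0.10.

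Leaving out 1 library in turn gave -2.29 to -2.21 for PTP4A1, 0.61 to 0.75 for CNNM2 and 8457 to 8910 calls over all genes. Leaving out replicate 3 of both groups was chosen after seeing the data and gave 8665 calls. Column headers number the libraries of each group as experiments, without saying that a number was shared between groups. Deviations of same-numbered libraries correlated at 0.274, -0.035 and 0.136, and not every library correlated best with its own number. On the recovered reads edgeR called 10688 of 14770 genes and DESeq2 10132 of 20657. With the replicate number as a block, 9665 genes were called in place of 9102, and PTP4A1 stayed at -2.25. Depth limits PTP4A3, at 7 reads or fewer per library.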
